A study of Mus musculus with 10 samples.

Results

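Nodal, Lefty1, Lefty2 and Tdgf1 are 4 of the 18193 mouse genes that could be named on the arrays of this time course of the embryonic testis. They were taken as a set because their products act in the same signalling route, and each was read from the probe set with the highest mean value over the 10 arrays. Total RNA of mouse embryonic testis had been measured on Affymetrix Mouse430_2 arrays at 5 embryonic ages (days E11.5, E12.5 and E14.5, then E16.5, then E18.5), and each age had 2 arrays from separate testis preparations. No genotype, strain, treatment or pooling is given for any stage in the sources used here. The question put to the 4 genes was whether their transcripts rose and fell again around E12.5.

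Nodal is a secreted ligand of the TGF-beta superfamily that signals through activin-type receptors and the Smad2 and Smad3 proteins. It needs an EGF-CFC co-receptor such as Cripto, the product of Tdgf1, and its own signalling switches on the Lefty genes, whose secreted products block it. In the fetal mouse testis the route is known from germ cells, where it is active for a short time after sex determination, downstream of FGF signals and together with genes of pluripotency.

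Signals are linear intensities as deposited. Differences between stages are differences in log2(signal + 16), which understate the change of genes with low signal, and each comes from limma's moderated test over all 18193 genes with a Benjamini-Hochberg adjusted p and a threshold of 0.05. The median signal of an array over all probe sets was 35.2 to 57.7, with the highest median on E14.5 replicate 1, and arrays of a stage correlated with r of 0.968 to 0.983. The testis label was set against markers of its cells. The summed signal of 8 Sertoli cell markers was 2902 to 3250 on the E11.5 arrays and 5272 to 5421 at E12.5. Much of that rise was Cst9, from a mean of 297 to 2285. Of the 8, 3 were called as higher at E12.5 (0.786% of all genes were), 1, Wt1, as lower (0.665%), and 4 did not pass. The summed signal of 4 fetal Leydig cell markers went from 183.7 to 280.5 at E12.5 to 13060 to 13490 at E16.5. None of the 94 listed marker and pathway genes measured was at a signal of 0 on any array. Some came close, such as Otx2 at 1.0 on E16.5 replicate 2, so this does not show that all were detected. The arrays of E14.5 had a scanning day of their own, those of E12.5 and E16.5 shared another, and E11.5 and E18.5 shared the last, so scanning day and stage cannot be told apart in any step from a stage to the next. E16.5 against E12.5 and E18.5 against E11.5 lie within a day, but their stages used different fluidics modules.

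Lefty1 was the member with the clearest rise and fall. Its signal was 63.1 and 60.4 on the arrays of E11.5, 160.2 and 157.7 on those of E12.5, 79.3 and 99.2 on those of E14.5, 56.7 and 37.6 on those of E16.5, and 89.7 and 64 on those of E18.5. The E12.5 arrays lay above all other 8 arrays and did not overlap with any stage, and the lowest values were those of E16.5. As stage means the signal went from 61.75 ± 1.91 on the arrays of E11.5 to 159 ± 1.77 on those of E12.5, 89.25 ± 14.1 on those of E14.5, 47.15 ± 13.5 on those of E16.5 and 76.85 ± 18.2 on those of E18.5 (SD, n = 2 each). Lefty1 encodes a secreted protein that binds Nodal and its co-receptor and so limits the reach of the signal in the early embryo.

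**Figure D1:**
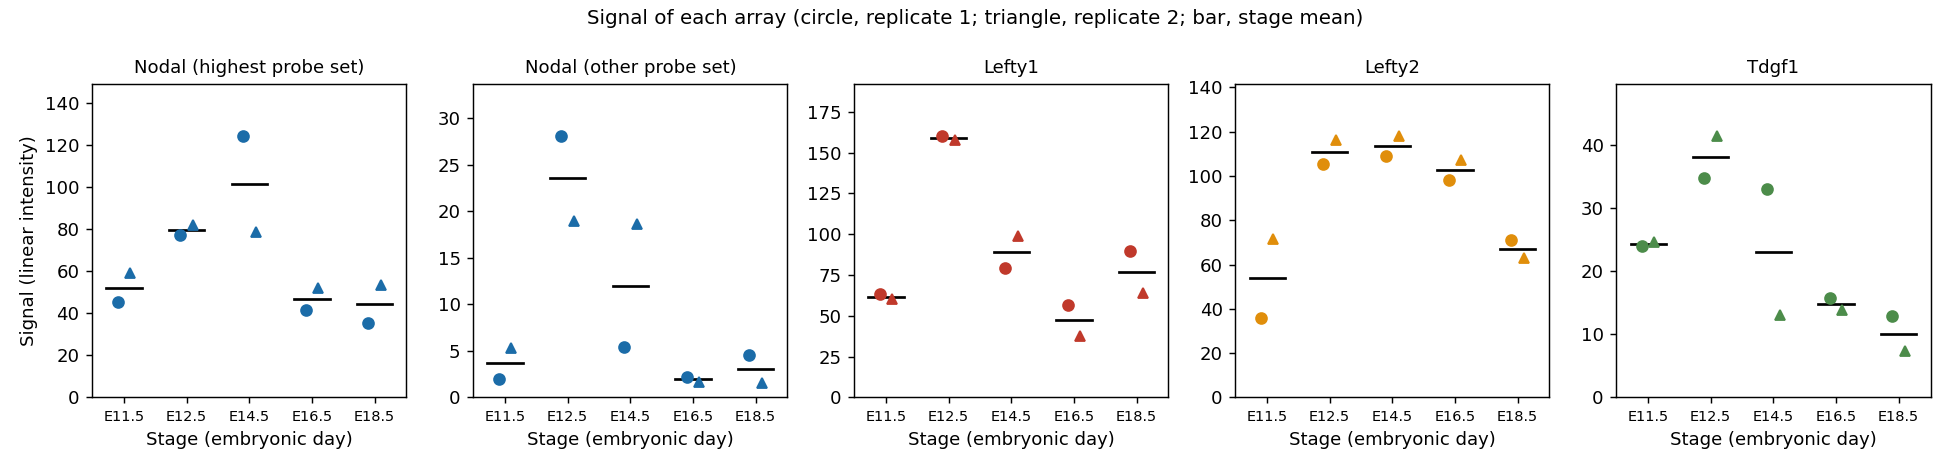
Signal of each array (linear intensity, y axis from 0, a different scale in each panel) by stage, with a circle for replicate 1, a triangle for replicate 2 and a bar for the stage mean. Lefty1 stands at 160.2 and 157.7 at E12.5 and at no more than 99.2 elsewhere, Tdgf1 is highest at E12.5, Lefty2 holds a level from E12.5 to E16.5, and the 2 Nodal probe sets differ in which stage is highest.

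Lefty1 changed over the 5 stages (adjusted p 0.00865, moderated F test), as did 20.9% of all genes. It rose from E11.5 to E12.5 by 1.17 on the log2 scale (SE 0.24, 2.25-fold, adjusted p 0.0395), a call made for 0.786% of genes in that direction and for 0.665% in the other. This call was near the threshold: leaving out any of the 10 arrays ended it (adjusted p 0.0502 to 0.218), with a difference of 1.15 to 1.20. The level at E12.5 was also above the mean of the other 4 stages, by 1.08 (SE 0.19, 2.12-fold, adjusted p 0.00745), a call made for 2.64% of genes as higher and 4.93% as lower, and this call was lost without E12.5 replicate 1 or without E12.5 replicate 2 (adjusted p up to 0.110).

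The later course of Lefty1 was tested in steps and over the longer interval. From E12.5 to E14.5 the difference was -0.74 (95% interval -1.26 to -0.22), which did not pass the threshold (adjusted p 0.121), and the next step to E16.5 was of like size at -0.75 (adjusted p 0.0904). Across both steps, E16.5 against E12.5, Lefty1 fell by 1.49 (SE 0.24, 2.80-fold lower, adjusted p 0.00223), a call made for 5.12% of genes in that direction and for 10.4% in the other. That comparison lies within a scanning day, and its call was kept in all 10 fits with an array left out (-1.71 to -1.27, adjusted p up to 0.0322). The ratio of the 3′ to the 5′ actin probe sets, a sign of RNA quality, was 1.93 and 2.03 on the E12.5 arrays and 2.61 and 2.60 on those of E16.5, and its part in the result was not tested. The E18.5 arrays read 89.7 and 64, both above the E16.5 arrays, but the difference of 0.56 did not pass (adjusted p 1), nor did that between E18.5 and E11.5 (0.24, 95% interval -0.28 to 0.76, adjusted p 0.561). From E16.5 to E18.5, 0 of 18193 genes passed in limma's test (0%), with 890 at an unadjusted p under 0.05.

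Lefty2, the paralogue of Lefty1 and likewise an inhibitor of Nodal, had another profile. Its signal was 36.1 and 71.4 on the arrays of E11.5, 105.2 and 116.3 on those of E12.5, 108.9 and 118.1 on those of E14.5, 98.4 and 107.2 on those of E16.5, and 70.9 and 62.9 on those of E18.5. The 6 arrays of the 3 middle stages all lay above the 4 arrays of E11.5 and E18.5. For this separation, and for those over several stages given below for other genes, no share of all genes is given. The E12.5 arrays overlapped with those of E14.5 and of E16.5, while both E14.5 arrays lay above both E16.5 arrays. The stage means were 53.75 ± 25, 110.8 ± 7.85, 113.5 ± 6.51, 102.8 ± 6.22 and 66.9 ± 5.66 in the order of age (SD, n = 2).

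None of the Lefty2 comparisons passed over all 10 arrays. E12.5 was above E11.5 by 0.91 (SE 0.25, 95% interval 0.36 to 1.46, adjusted p 0.138), and this difference was 0.54 without E11.5 replicate 1 and 1.28 without E11.5 replicate 2, where it passed (adjusted p 0.0326). E14.5 against E12.5 gave 0.03 (95% interval -0.52 to 0.58, adjusted p 0.954) and -0.19 after quantile normalization, and E16.5 against E12.5 gave -0.09 (95% interval -0.65 to 0.46, adjusted p 0.863). The test over the 5 stages gave an adjusted p of 0.0503, which went under the threshold in 5 of the alternative settings, among them the filter at the 40th percentile (adjusted p 0.0163), and without E11.5 replicate 2 (adjusted p 0.0118). The difference between the Lefty1 and Lefty2 profiles was not itself tested. As close paralogues, their probe sets could share signal from both transcripts, and this was not tested.

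Nodal, the ligand, was measured by 2 probe sets whose order of stages differed. The probe set with the higher signal read 45.5 and 58.9 on the arrays of E11.5, 77.2 and 81.7 on those of E12.5, 124.2 and 78.4 on those of E14.5, 41.6 and 51.8 on those of E16.5, and 35.5 and 53.2 on those of E18.5. The 4 arrays of E12.5 and E14.5 lay above the other 6, and the highest value was that of E14.5 replicate 1, the array with the highest median signal. The stage means were 52.2 ± 9.48, 79.45 ± 3.18, 101.3 ± 32.4 and 46.7 ± 7.21 from E11.5 to E16.5 (SD, n = 2) and 44.35 at E18.5.

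The second Nodal probe set was much dimmer. It read 2.0 and 5.3 on the arrays of E11.5, 28.1 and 19.0 on those of E12.5, 5.4 and 18.6 on those of E14.5, 2.2 and 1.7 on those of E16.5, and 4.6 and 1.5 on those of E18.5. Its E12.5 arrays lay above the other 8, the lower of them only just above E14.5 replicate 2. Over the 10 arrays the log2 values of the probe sets correlated with r = 0.54, a description over arrays that share their scaling.

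With the brighter probe set no Nodal comparison passed over all 10 arrays and all genes. E12.5 was above E11.5 by 0.49 (95% interval -0.10 to 1.08, adjusted p 0.548) and above the mean of the other stages by 0.38 (95% interval -0.09 to 0.84, adjusted p 0.319). E14.5 against E12.5 gave 0.27 (95% interval -0.32 to 0.86), and -0.016 without E14.5 replicate 1. E16.5 against E14.5 gave -0.88 (95% interval -1.47 to -0.29, adjusted p 0.0790), and the test over the 5 stages gave an adjusted p of 0.0696. Both passed with the filter at the 40th percentile (adjusted p 0.0413 and 0.0291), and the second also without E14.5 replicate 2 (adjusted p 0.0473). The dimmer probe set read 5.4 or less on 7 of the 10 arrays, with no detection call to place it above background, so its log2 differences are set in part by the pseudocount. With it in place of the brighter one, a check made after the values were seen, Nodal at E12.5 was above the mean of the other stages by 0.93 (SE 0.19, adjusted p 0.0178) and E16.5 was below E12.5 by 1.13 (log2 difference -1.13, adjusted p 0.0113). The difference between E12.5 and E11.5 was then 1.01 on the log2 scale (95% interval 0.46 to 1.55) and did not pass (adjusted p 0.0923). The mean of the probe sets gave 0.65 for E12.5 against the mean of the other stages (adjusted p 0.0285). The calls for Nodal therefore differ with the probe set read and with the filter.

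Tdgf1, which encodes the co-receptor Cripto, had low signals throughout. They were 24.0 and 24.6 on the arrays of E11.5, 34.8 and 41.4 on those of E12.5, 33.0 and 13.1 on those of E14.5, 15.7 and 13.8 on those of E16.5, and 12.9 and 7.3 on those of E18.5. Both E12.5 arrays lay above all the others, the lower by a small margin over E14.5 replicate 1, the array with the highest median signal. As a percentile of its array, Tdgf1 stood at 35.1 on E14.5 replicate 1 and at 22.3 on E14.5 replicate 2. The percentiles were 48.5 and 50.8 at E12.5 and 40.5 and 36.1 at E11.5. The 4 arrays of E16.5 and E18.5 lay below those of E11.5 in signal. The stage means were 24.3 ± 0.424, 38.1 ± 4.67, 23.05 ± 14.1, 14.75 ± 1.34 and 10.1 ± 3.96 in the order of age (SD, n = 2).

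No Tdgf1 comparison passed over all 10 arrays with the pseudocount of 16 and the deposited scaling, but some passed under other settings. E12.5 was above the mean of the other stages by 0.70 (SE 0.21, 95% interval 0.23 to 1.17, adjusted p 0.0728), and by 0.80 without E14.5 replicate 1 (adjusted p 0.0276) and 0.84 after quantile normalization (adjusted p 0.0279). With a pseudocount of 1 this difference was 1.16 and did not pass (adjusted p 0.119). E16.5 against E12.5 gave -0.81 (95% interval -1.41 to -0.22, adjusted p 0.0672) and passed without E14.5 replicate 1 (adjusted p 0.0301), without E14.5 replicate 2, with a pseudocount of 64 (adjusted p 0.0486), after quantile normalization (adjusted p 0.0266) and with the arrays of these stages alone (adjusted p 0.0448). E12.5 against E11.5 gave 0.42 (adjusted p 0.630), and E18.5 against E11.5 gave -0.64 (95% interval -1.23 to -0.04, adjusted p 0.142). The mean log2 value of Tdgf1 over all arrays lay under the 40th percentile of genes.

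**Figure D2:**
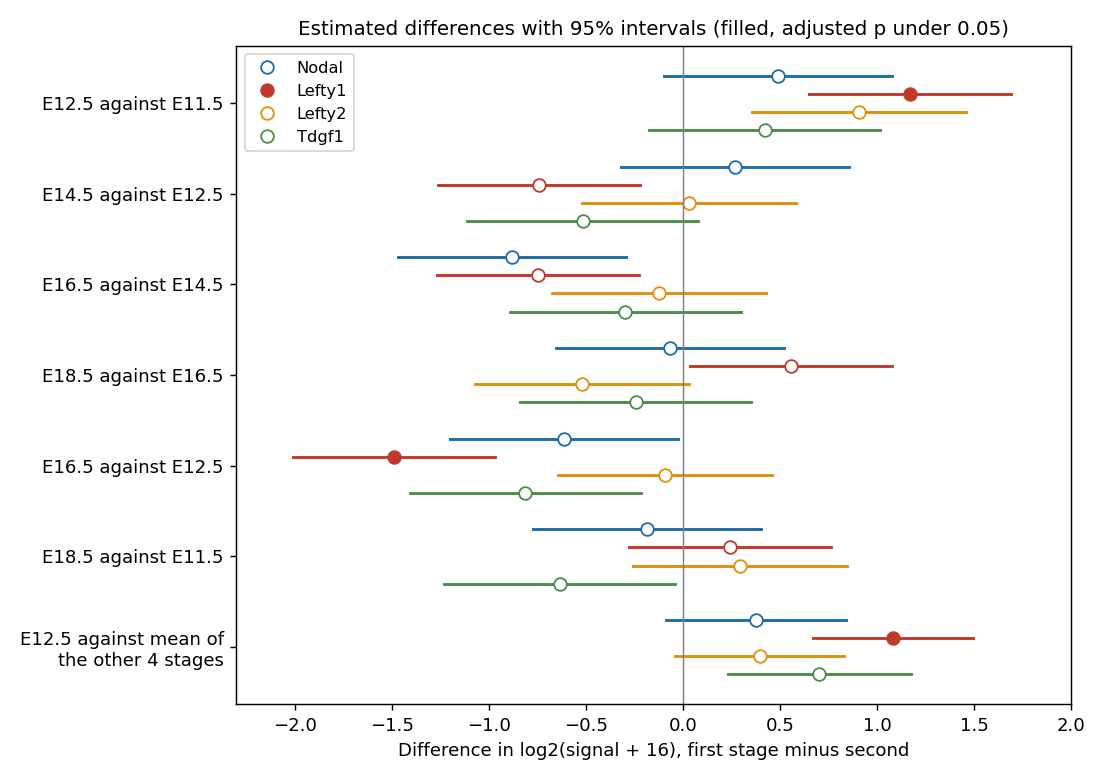
Differences in log2(signal + 16) (x axis) for each member and comparison (y axis), with 95% intervals, filled where the adjusted p was under 0.05. The filled points are those of Lefty1 in E12.5 against E11.5 (1.17), E16.5 against E12.5 (-1.49) and E12.5 against the mean of the other stages (1.08), and the intervals of Lefty2 and Nodal in E14.5 against E12.5 include 0.

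The sequences just before the start of Nodal and Tdgf1 are shown because the route feeds back on its own genes through Smad proteins and the DNA-binding partner Foxh1, and these are the members with a promoter window in the RefSeq table (GRCm38.p6). Each window holds 250 bases before the start of the gene and 50 after it, printed 5′ to 3′ on the strand of the gene. The Tdgf1 window lies at chr9:110946109-110946408 on the minus strand and the Nodal window at chr10:61417722-61418021 on the plus strand. Capitals mark the letters AATNNACA (N, any base), a loose form of the Foxh1 motif, searched on both strands. Both marked stretches read AATTTACA, with T at each of the free positions, and whether they fit the full motif was not tested. The Tdgf1 window was 41.67% G and C, the Nodal window 54.0%, and the median of all windows 52.67%.
Tdgf1: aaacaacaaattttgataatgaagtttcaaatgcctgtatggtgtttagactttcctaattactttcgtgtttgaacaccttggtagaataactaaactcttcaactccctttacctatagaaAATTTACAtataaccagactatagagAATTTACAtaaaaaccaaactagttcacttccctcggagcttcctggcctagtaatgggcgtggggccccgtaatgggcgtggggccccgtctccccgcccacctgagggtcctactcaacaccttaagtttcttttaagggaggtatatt
Nodal: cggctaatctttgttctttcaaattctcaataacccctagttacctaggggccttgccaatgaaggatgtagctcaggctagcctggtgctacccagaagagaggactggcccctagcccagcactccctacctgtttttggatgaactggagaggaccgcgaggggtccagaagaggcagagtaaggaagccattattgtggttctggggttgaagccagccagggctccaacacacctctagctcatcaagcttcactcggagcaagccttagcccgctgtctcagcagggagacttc
The Tdgf1 window held 2 matches, starting 127 and 101 bases before the start, and the Nodal window held 0. Sequence outside the promoter windows was not searched, so the 0 for Nodal says nothing of sites elsewhere in or near the gene. At least 1 match was present in 12.2% of 32851 promoter windows. The palindrome GTCTAGAC, a Smad binding element, matched neither window and was present in 0.21% of all windows. A match is a string of letters and not a shown binding site.

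Set side by side, 1 of the 4 members was called as higher at E12.5 than at E11.5 (0.786% of all genes were), a call near the threshold. From E12.5 to E14.5, 0 changed (2.65% of all genes did, 2% higher and 0.649% lower). At E16.5, 1 was called as lower than at E12.5 (5.12% of all genes were). From E14.5 to E16.5, 0 of 4 members passed (5.62% of all genes did, 3.79% higher and 1.83% lower), and from E11.5 to E18.5, 0 of 4 (17.5%, 11.1% higher and 6.39% lower). A rise into E12.5 and a fall out of it, both called, was found for 0 of 4 members and for 4 of 18193 genes (0.022%). Those 4 genes, named after their values were seen, were Col9a1, Col9a2, Efhd2 and Tpd52l1. The highest mean log2 value lay at E12.5 for 2 members, Lefty1 and Tdgf1, and for 2636 of the 18193 genes, and the E12.5 arrays lay above all other arrays for the same 2 members and for 2.98% of genes. The comparisons share the E12.5 arrays, so a high or low pair at that stage moves them together. Across the 10 arrays the members correlated in pairs with r from 0.24 (Lefty2 with Tdgf1) to 0.61 (Nodal with Tdgf1), values that also reflect the shared stages and scaling.

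Germ cell markers moved over the same stages. The mean log2 value of 7 germ cell markers (Ddx4, Dazl, Dppa3, Pou5f1, Sycp3, Stk31 and Mael) was 6.91 on the arrays of E11.5, 8.09 on those of E12.5, 9.40 on those of E14.5, 8.92 on those of E16.5 and 8.47 on those of E18.5. Their summed signal was 1218 to 1281 on the E11.5 arrays, 2380 to 3160 at E12.5 and 5453 to 6289 at E14.5. Of the 7, 4 rose from E11.5 to E12.5 (0.786% of all genes did), among them Dazl, whose product binds RNA in germ cells, from 149 ± 65.5 to 751 ± 91.8 (adjusted p 0.00106). The count of 4 became 1 without E11.5 replicate 1 or either E12.5 array, 2 without either E18.5 array or with a pseudocount of 64, and 0 with the arrays of these stages alone. In whole testis RNA, fewer cells of a type and less RNA per cell cannot be told apart.

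Relative to that germ cell marker mean, Lefty1 stood alike at E11.5 and E12.5 and lower at E14.5. Its log2 value minus the germ cell mean was -0.63 ± 0.22 on the arrays of E11.5, -0.64 ± 0.25 on those of E12.5, -2.69 ± 0.06 on those of E14.5, -2.95 ± 0.04 on those of E16.5 and -1.94 ± 0.06 on those of E18.5 (SD, n = 2). The other members were on average lower at E12.5 than at E11.5 on this scale: Nodal went from -0.83 to -1.51, Lefty2 from -0.83 to -1.11 and Tdgf1 from -1.58 to -2.34, and by E14.5 they stood at -2.55, -2.38 and -4.16. These differences are a description with no test, and the part of germ cell number in the results was not tested. The 7 markers also differed in direction. From E12.5 to E14.5, 3 were called as higher and 0 as lower (2% and 0.649% of all genes). From E12.5 to E16.5, 4 were called as higher and 2 as lower (10.4% and 5.12%). Their mean is therefore not a measure of germ cell number.

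**Figure D3:**
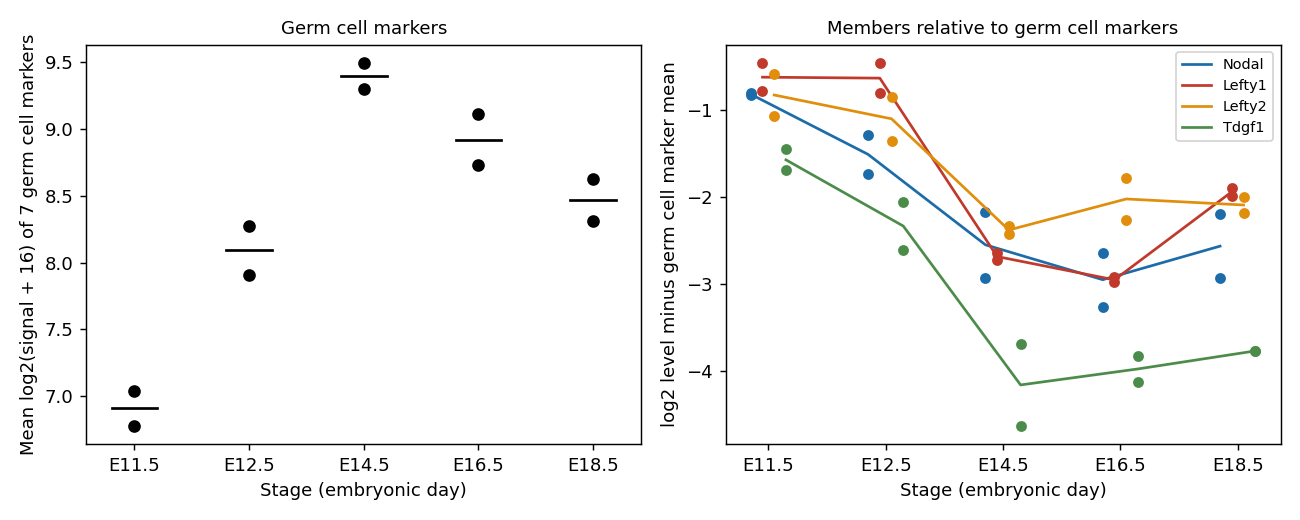
Left, mean log2(signal + 16) of 7 germ cell markers on each array by stage, with a bar for the stage mean. Right, the log2 level of each member minus that mean, with points for arrays and lines through stage means. The marker mean peaks at E14.5 (9.40), and Lefty1 goes from -0.64 at E12.5 to -2.69 at E14.5.

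The pluripotency genes of germ cells, with which the Nodal route is linked, were mostly high at the 3 early stages. Of 10 such genes, 7 were called as higher at E12.5 than the mean of the other stages and 0 as lower (2.64% and 4.93% of all genes), with a median of 1.02 beside -0.07 over all genes. The count of 7 became 2 without E12.5 replicate 1, 3 without E12.5 replicate 2 and 3 with the filter at the 60th percentile. Sox2 read 236.2 ± 54.4 on the arrays of E11.5, 288 ± 80.0 on those of E12.5, 153.9 ± 29.6 on those of E14.5 and 14.15 ± 4.17 on those of E16.5 (SD, n = 2). Dppa5a, a gene of pluripotent cells, read 2532 ± 333, 3889 ± 840, 2468 ± 333 and 158.2 ± 46.9 at the same stages. None of the 10 passed in E12.5 against E11.5 (1.45% of all genes did), and the median there was 0.29 beside -0.01 over all genes. Here and elsewhere, the comparison with the mean of the other stages can also pass for genes that are high early and low later. Of the genes called, Nanog and Tfap2c had their highest mean at E11.5 and Dppa3 had its highest at E14.5. The filter at the 60th percentile left genes with a low mean value, such as Nanog and Tfap2c, out of the fit. Its lower count therefore includes genes that were not tested.

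Of 34 other genes of the Nodal pathway, 31 were analysed, and 8 of them changed over the 5 stages (25.8%, beside 20.9% of all genes), a count that was 5 without E18.5 replicate 2 and 3 with the filter at the 60th percentile. In this and other lists, the filters left genes with a low mean value out of the fit. A lower count under a filter therefore includes genes that were not tested. From E11.5 to E12.5 none of the 31 passed (1.45% of all genes did), with a median of -0.02 beside -0.01 over all genes. In E12.5 against the mean of the other stages, 3 were called as higher and 0 as lower (9.68% in all, beside 7.57% of all genes), and in E16.5 against E12.5, 5 were called as lower and 2 as higher (22.6% in all, beside 15.5%). The count of 3 became 0 without E12.5 replicate 1 or without E12.5 replicate 2, and with the filter at the 60th percentile, 1 with the filter at the 40th, 2 with a pseudocount of 1, and 5 with the replicate number as a block. The count of 7 became 3 without E12.5 replicate 1, 2 without E16.5 replicate 1 and 3 without E16.5 replicate 2, and was 4 with the filter at the 60th percentile, with averaged probe sets or after quantile normalization.

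Among the ligands, Gdf3, which can signal through the same receptors, read 56.65 ± 12.0, 83.05 ± 31.7, 101.8 ± 7.99, 33.55 ± 0.778 and 29.25 ± 2.33 in the order of age (SD, n = 2). It changed over the stages (adjusted p 0.0114) and was lower at E16.5 than at E14.5 by 1.25 on the log2 scale (log2 difference -1.25, adjusted p 0.0235), a call lost without either array of E14.5 or of E16.5. The inhibitors Cer1 and Dand5 had stage means between 3.0 and 59.6 and did not pass over the stages. Cfc1, the other EGF-CFC co-receptor gene, had means between 31.55 and 49.25 and did not pass.

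Among the receptors, Acvr1c, the type I receptor ALK7, stood out at the early stages. It read 101.6 and 42.7 on the arrays of E11.5, 101.7 and 72.2 on those of E12.5, 27.7 and 18.9 on those of E14.5, 11.6 and 17.6 on those of E16.5, and 6.7 and 12.8 on those of E18.5. All 4 arrays of the early pair of stages lay above the 6 later ones. It was higher at E12.5 than the mean of the other stages by 1.35 (adjusted p 0.0140), a call lost without either E12.5 array, and changed over the stages (adjusted p 0.00482). Acvr1b, the type I receptor ALK4 used by Nodal and activin, was 1.46-fold higher at E16.5 than at E12.5 (314.2 ± 5.30 beside 210.4 ± 23.7, adjusted p 0.0289). Its log2 difference was -0.06 with the mean of its probe sets in place of 0.55, and the call was lost without any 1 of the 4 arrays of these stages. Quantile normalization (adjusted p 0.0562) and leaving out the variance trend (adjusted p 0.057) also ended the Acvr1b call. The type II receptor genes Acvr2a and Acvr2b did not pass over the stages, and Acvr2b was lower at E18.5 than at E11.5 (means of 131.1 at E11.5 and 77.15 at E18.5, adjusted p 0.0390), a call lost without any 1 array of E11.5, E16.5 or E18.5 (adjusted p up to 0.187) and with the arrays of these stages alone (adjusted p 0.101).

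In the intracellular part of the route, Smad2, Smad3 and Smad4 had stage means within 236.8 to 313.7, 293.8 to 405.9 and 726.8 to 891.8, and none passed over the stages. Foxh1 read 62.1 ± 23.9, 88.2 ± 20.1, 80.5 ± 21.5, 33.65 ± 7.57 and 23.0 ± 23.9 in the order of age (SD, n = 2), with an adjusted p of 0.0612. Smad7, an inhibitor of the receptors, went from 162 ± 27.9 at E12.5 to 310.8 ± 29.4 at E16.5 (log2 difference 0.88, adjusted p 0.0274). That call was lost without any 1 of the arrays of these stages, with averaged probe sets (adjusted p 0.156) and after quantile normalization (adjusted p 0.0555). Skil, a repressor of Smads that TGF-beta type signals switch on, had its highest mean at E12.5 (1227 ± 62.4, beside 838.9 ± 194 at E11.5) and did not pass (adjusted p 0.0726 against the mean of the other stages). Trim33, a Smad partner, was lower at E16.5 than at E12.5 (means of 622.6 at E12.5 and 409.1 at E16.5, adjusted p 0.0487). That call was lost in 6 of the 10 fits with an array left out (without E12.5 replicate 1, E14.5 replicate 1, or either array of E16.5 or E18.5, adjusted p up to 0.333). It was also lost with a pseudocount of 64, averaged probe sets (-0.27, adjusted p 0.204), quantile normalization, no variance trend, or the arrays of these stages alone.

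**Figure D4:**
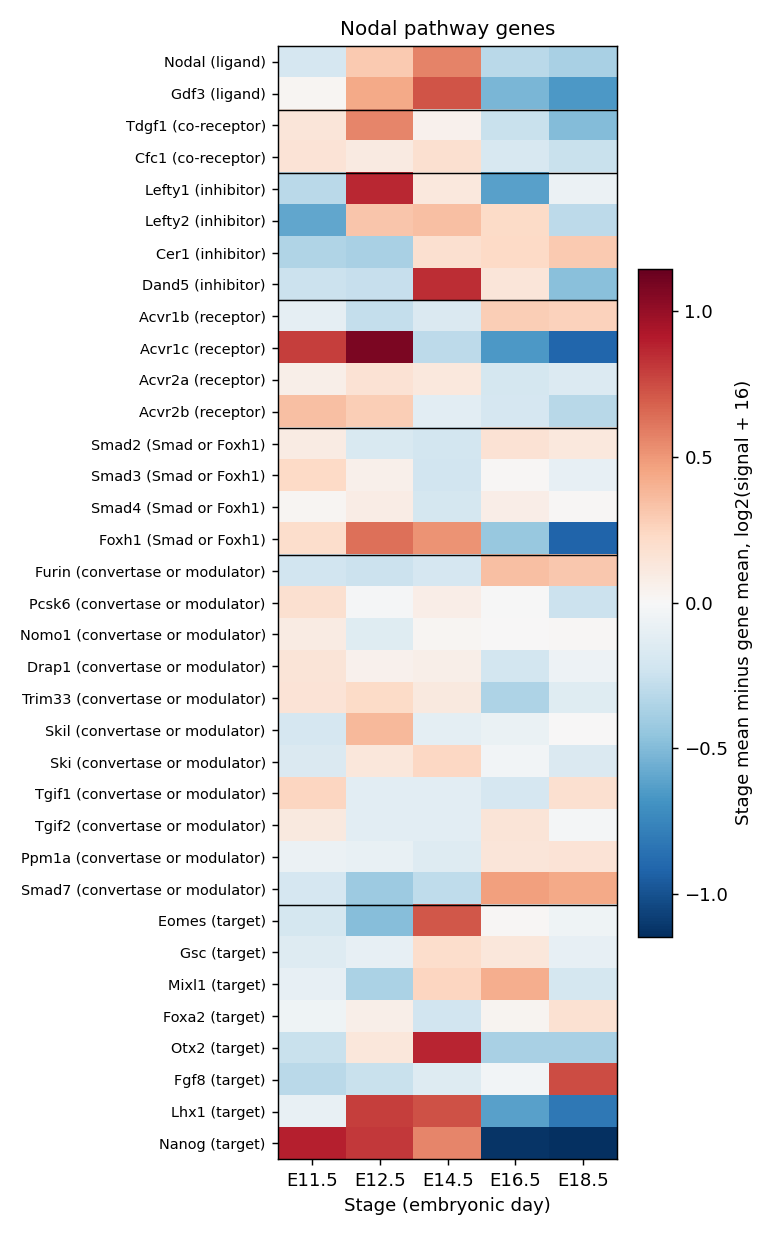
Stage means of log2(signal + 16) minus the mean of each gene over the stages (colour) for the 4 members and 31 other Nodal pathway genes (rows, with their role) by stage (columns). Lefty1, Acvr1c, Lhx1 and Nanog are above their own means at E12.5 and below them at E16.5, and Smad2, Smad3 and Smad4 stay near theirs.

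Genes known as Nodal targets in the early embryo differed among themselves. Of 8 analysed, 2 were called as higher at E12.5 than the mean of the other stages (2.64% of all genes were) and 0 as lower (4.93%), and the median was -0.02 beside -0.07 over all genes. Nanog, a pluripotency factor that is also on the pluripotency list, read 112.1 ± 22.3, 104.2 ± 7.57, 85.2 ± 10.3, 15.45 ± 3.32 and 15.25 ± 6.86 (SD, n = 2), and was higher at E12.5 than the mean of the other stages by 1.02 (adjusted p 0.0135). Lhx1, a homeobox gene that is also a marker of the mesonephric ducts, read 15.55 ± 4.88, 41.8 ± 5.94, 39.2 ± 1.27, 6.15 ± 7.0 and 2.80 ± 0.283, and the same difference was 0.99 (adjusted p 0.0152). Both calls were lost without either E12.5 array, which leaves 0 of the 8, and that of Lhx1 also with a pseudocount of 1 (adjusted p 0.0519). The summed signal of 4 mesonephros markers, of which Lhx1 is a member, was 1240 to 1660 on the E11.5 arrays. It was 721 to 745.8 on those of E12.5 and 154.3 to 157.6 on those of E18.5. Most of this sum was Emx2, with stage means of 1347, 633.8, 378.6, 144.5 and 97.7 in the order of age. Pax8 had means of 82.25, 55.15, 59.4, 54 and 52.6, those of Gata3 were 2.15 to 4.8, and Lhx1 first rose. The sum therefore mainly follows Emx2 and is not a measure of mesonephros content, whose part in the Lhx1 result was not tested. Eomes was higher at E14.5 than at E12.5 (arrays of 14.8 and 10.2 at E12.5 and of 53.0 and 46.0 at E14.5, log2 difference 1.20, adjusted p 0.0194). That call was lost without either E12.5 array, without E14.5 replicate 1, after quantile normalization and when its probe sets were averaged. It was also lost with the arrays of these stages alone (adjusted p 0.117). Otx2 read 20.4 and 34.6 at E14.5 and 3.3 and 1.0 at E16.5 (adjusted p 0.0475), a call lost without any 1 array of E11.5, E14.5, E16.5 or E18.5 (adjusted p up to 0.257), with a pseudocount of 1, averaged probe sets, quantile normalization or no variance trend. Fgf8 read 1.2 on both E11.5 arrays, and 16.2 and 23.6 at E18.5 (adjusted p 0.00172). No fold is given for Otx2 and Fgf8, since no detection call places the low values above background.

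Of 8 analysed ligands and modulators of the activin and TGF-beta branch, 5 were called as higher at E18.5 than at E11.5 (11.1% of all genes were). In the same list 0 passed in E12.5 against E11.5 (1.45% of all genes did). At E14.5, 1 was called as higher than at E12.5 (2% of all genes were). This was Inha, which encodes the inhibin alpha chain, going from 269.9 ± 29.4 to 744.7 ± 146 (adjusted p 0.00842). Leaving out E12.5 replicate 1 ended the Inha call (adjusted p 0.0933). The count of 5 became 3 without E11.5 replicate 1 or E18.5 replicate 1, and 2 without E18.5 replicate 2. Fgf9, a Sertoli cell signal upstream of the route, read 133.9 ± 31.5, 183.5 ± 43.7, 158.8 ± 19.4, 60.75 ± 1.48 and 49.4 ± 13.3 in the order of age (SD, n = 2). It was higher at E12.5 than the mean of the other stages by 0.89 (adjusted p 0.0203), a call lost without either E12.5 array (adjusted p up to 0.200). It is named after its values were seen, as the only 1 of 8 analysed genes on the list of male germ cell fate called as higher in that comparison, while 5, such as Mael, were called as lower (2.64% of all genes were higher and 4.93% lower). The count of 5 lower was 3 without E12.5 replicate 1 or without _x_at and _s_at probe sets, and 1 with the filter at the 60th percentile.

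The genes with the profiles most like each member were found by Pearson's r over the 10 arrays among 9374 named genes with a stage mean of at least 100. For Lefty1 they were Zfp141 (r = 0.96), Fam111a, Dek, Cks2 and Kif18a (r = 0.93). Kif18a, a mitotic kinesin, read 159.3 on the arrays of E11.5, 350.8 on those of E12.5, 215.9 on those of E14.5, 147.3 on those of E16.5 and 162.8 on those of E18.5 as stage means. For Lefty2 they were Prokr2 (r = 0.96), Cdh11, Fbln2, Lysmd3 and Col27a1 (r = 0.92), and Prokr2, a prokineticin receptor, had stage means of 19.35, 144.8, 128, 68.8 and 28.85. For Nodal they were Pcsk4 (r = 0.92), Krt79, Hoxa3, Sohlh2 and Lrrcc1 (r = 0.88), each with its highest mean at E14.5. For Tdgf1 they were Nle1 (r = 0.94), Mrpl13, Zar1, Dusp12 and Nudcd2 (r = 0.90), each with its highest mean at E12.5. These values are a description over arrays that share stages and scaling, taken as the highest among many genes.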

How the data were processed

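Probe set signals of 10 Affymetrix Mouse430_2 arrays were analysed, with stages taken from the titles of the samples. The deposited values were linear intensity values with no missing entries over 45101 probe sets. The extraction was with Trizol and the labelling a one-cycle biotin protocol, per the labels' protocols, and the software and scaling target are stated neither there nor in the other sources used. The trimmed mean of the deposited intensity values was 125 on every array. The array settings files were read only for scanning day and fluidics module.

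Probe sets with 1 gene symbol (34945) were named from the platform annotation, updated through a RefSeq table (GRCm38.p6), and 932 with several symbols were left out. Each gene took the probe set with the highest mean of log2(signal + 16). Models with a term for stage were fitted to all 10 arrays with limma 3.58.1 in R 4.3.3 (lmFit, eBayes with a trend, 5 residual degrees of freedom), without a filter on low values, so that every member was tested. Tests were two-sided. No detection calls were used, and precision is limited by having 2 arrays per stage; p-values reflect the spread between these preparations. The procedure was tested on simulated data. The members, lists and comparisons were chosen with earlier results of these data known. Genes named are the members, the Nodal pathway lists, at most 4 genes of each other list, and the 5 genes most like each member; any others were named in counts of their list or are marked. Alternatives changed the pseudocount, filter, probe set rule, normalization, variance trend, blocks and arrays. Listed genes without a probe set of their own were not analysed here.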

Additional observations from a re-analysis of the deposited data

How the results depend on the processing

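Over 32 member results (4 genes in 8 comparisons), 254 of 280 values from alternatives other than leaving out an array kept their direction and side of the threshold, 19 went past it, 2 no longer passed and 5 changed sign. The calls that no longer passed were both of Lefty1 in E12.5 against E11.5, with 1.14 after quantile normalization (adjusted p 0.0546) and 1.17 with the 4 arrays of these stages alone (adjusted p 0.135). For the change over the 5 stages the adjusted p passed for Lefty2 with a pseudocount of 64 (0.0466), the filter at the 40th percentile (0.0163), the mean of probe sets (0.0372), no variance trend (0.0484) and the replicate block (0.0404). It passed for Nodal with that filter (0.0291), the mean of probe sets (0.0146) and its other probe set (0.0260), and for Tdgf1 after quantile normalization (0.0257). Against the mean of the other stages, E12.5 passed for Nodal with the mean of probe sets (0.65) and its other probe set (0.93) and for Tdgf1 after quantile normalization (0.84). E16.5 against E12.5 passed for Nodal with the same 2 settings (-0.87 and -1.13) and for Tdgf1 with a pseudocount of 64 (-0.37), quantile normalization (-0.91) and the arrays of these stages alone (-0.81). E16.5 against E14.5 passed with the filter at the 40th percentile for Nodal (-0.88) and Lefty1 (-0.75). Signs that changed were those of uncalled differences: in E14.5 against E12.5, Nodal with the mean of probe sets (-0.13) and its other probe set (-0.53) and Lefty2 after quantile normalization (-0.19), and in E18.5 against E16.5, Nodal with the mean of probe sets (0.008) and its other probe set (0.081). With the mean of probe sets Acvr1b in E16.5 against E12.5 was -0.057. The other Nodal probe set, and all alternatives for genes outside the Nodal lists and for numbers of genes within single lists, were tried after seeing the data. The filters left no value for Tdgf1 and, at the 60th percentile, for any member. They also left out other listed genes with a low mean value, which were then not tested. A random block for scanning day was not run, since day is fixed by stage. In other results the causes were not tested.

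Numbers of genes called moved by over 1.5 times with the arrays of the compared stages alone to 14 (E12.5 against E11.5, 264 in all), 102 (E14.5 against E12.5, 482 in all), 520 (E16.5 against E14.5, 1022 in all) and 2000 (E18.5 against E11.5, 3185 in all), with fewer arrays in the fit. Quantile normalization gave 301 in E14.5 against E12.5. The replicate block gave 1559 in E16.5 against E14.5. In E18.5 against E16.5, with 0 in all, the filters at the 40th and 60th percentile called 2 and 5 and leaving out _x_at and _s_at probe sets called 1. The labels do not say what arrays with the same replicate number share. Replicate 1 used fluidics module 1 at E11.5, E12.5 and E14.5 and module 3 at E16.5 and E18.5. Replicate 2 used module 2 and module 4 at these stages, so the block is in part one of module. The deviations of arrays with the same number correlated over genes with r of -0.04 to 0.20 in 10 pairs of stages. The block changed no member call but that of Lefty2 above.

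Leaving out 1 array at a time gave numbers of called genes of 2418 to 3957 over the stages (3802 in all), 50 to 239 in E12.5 against E11.5, 94 to 593 in E14.5 against E12.5, 227 to 1794 in E12.5 against the mean of the other stages (1378 in all), 968 to 3185 in E16.5 against E12.5 (2814 in all), 58 to 1198 in E16.5 against E14.5 and 1747 to 3222 in E18.5 against E11.5. For the change over the stages the adjusted p was 0.0473 to 0.186 for Nodal, 0.0131 to 0.0541 for Lefty1 (lost without E12.5 replicate 1), 0.0118 to 0.109 for Lefty2 and 0.0295 to 0.225 for Tdgf1. In E12.5 against E11.5 the difference was 1.15 to 1.20 for Lefty1 and 0.54 to 1.28 for Lefty2, and in E14.5 against E12.5 it was -0.016 to 0.56 for Nodal and -0.032 to 0.095 for Lefty2. In E12.5 against the mean of the other stages it was 1.03 to 1.14 for Lefty1 and 0.61 to 0.80 for Tdgf1. In E16.5 against E12.5 it was -0.90 to -0.73 for Tdgf1, in E16.5 against E14.5 -0.67 to 0.079 for Tdgf1, in E18.5 against E16.5 -0.28 to 0.15 for Nodal, and in E18.5 against E11.5 -0.40 to 0.028 for Nodal and -0.078 to 0.67 for Lefty2.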
